A study of Mus musculus with 12 samples.

Results

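Islet CD8 T cells that carried transcripts of both Gzmk and Gpr183, and none of Havcr2, Klrg1 or Mki67, numbered 1488 of the 18163 islet cells kept in 4 single-cell RNA-seq libraries, a share of 8.19% (exact 95% binomial interval 7.80 to 8.60). They were chosen from their raw counts: at least 1 unique molecule (UMI) each of Gzmk and Gpr183 and 0 UMIs of the other 3 genes, in cells with mitochondrial UMIs below 5% and 200 to 3500 genes. These 5 genes therefore describe the cells and test nothing. With the spleen libraries, where cells of 200 to 2000 genes were kept, the series held 24117 kept cells.

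All cells came from female NOD/ShiLtJ mice, a strain that develops autoimmune diabetes spontaneously, at 10 to 15 weeks of age and before diabetes. In each of 2 rounds, islets and spleens were pooled from 10 mice, so no cell could be traced to an animal. CD45.1+ CD8+ cells negative for CD4, B220 and CD11b were sorted from islets as binding a Kd tetramer with the mimotope NRP-V7, which marks T cells reactive to IGRP, a beta cell antigen, or as not binding it, and tetramer-positive cells were sorted from the spleens. The paper states that the sequenced spleen cells were also sorted as CD44+. The mice carried no transgene and received no treatment that the sources name. Each library was read both for RNA and for T-cell receptor (TCR) chains. Below, 4 values in a row stand for tetramer-negative Round 1, tetramer-negative Round 2, tetramer-positive Round 1 and tetramer-positive Round 2. In that order the 4 islet libraries held 479, 798, 76 and 135 of the Gzmk+ Gpr183+ cells, called members here.

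Gzmk encodes granzyme K, a granule protease of CD8 T cells that is found in memory and early effector cells more than in terminal killers. Gpr183 encodes EBI2, a receptor for oxysterols that guides lymphocytes and dendritic cells toward oxysterol-rich zones of lymphoid tissue. Havcr2 encodes TIM-3, a coinhibitory receptor of exhausted cells, Klrg1 marks terminal effectors, and Mki67 marks dividing cells. In GRCm38, Gzmk lies on the minus strand of chromosome 13 (113171608 to 113225908, ENSMUSG00000042385) and overlaps Esm1 on the plus strand. Gpr183 lies on the minus strand of chromosome 14 (121952551 to 121965195, ENSMUSG00000051212) and overlaps Ubac2 on the plus strand.

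Clones of at least 10 cells held 34.1%, 34.6%, 95.7% and 90.5% of the members with a paired receptor. Shown as examples are 7 clones from among the 3 with the most members in each library. The clonal comparisons below were not limited to these clones. A clone is a pair of identical alpha and beta CDR3 nucleotide sequences. Each CDR3, the loop that touches the peptide, is written 5′ to 3′ from the deposited TCR contigs, and the capitals mark a run of 12 bases in the alpha loop that recurred among tetramer-positive clones in 2 forms that differ at 1 base, and was picked after the sequences were seen.
Tetramer-positive Round 2, clone 1, alpha TRAV16N and TRAJ42: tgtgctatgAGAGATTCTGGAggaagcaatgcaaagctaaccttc
Tetramer-positive Round 2, clone 1, beta TRBV13-3 and TRBJ2-2: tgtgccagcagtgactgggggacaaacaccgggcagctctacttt
Tetramer-positive Round 2, clone 2, beta TRBV13-3 and TRBJ2-4: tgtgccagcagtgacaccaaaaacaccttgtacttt
Tetramer-positive Round 2, clone 3, alpha TRAV16N and TRAJ42: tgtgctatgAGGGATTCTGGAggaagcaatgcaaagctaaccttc
Tetramer-positive Round 1, clone 3, beta TRBV13-3 and TRBJ2-4: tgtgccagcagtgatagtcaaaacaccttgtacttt
Tetramer-positive Round 1, clone 1, alpha TRAV16N and TRAJ49: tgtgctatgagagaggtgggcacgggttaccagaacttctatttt
Tetramer-positive Round 1, clone 1, beta TRBV13-3 and TRBJ2-4: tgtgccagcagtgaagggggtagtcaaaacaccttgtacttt
Tetramer-negative Round 1, clone 1, alpha TRAV6N-7 and TRAJ18: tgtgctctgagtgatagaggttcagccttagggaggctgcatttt
Tetramer-negative Round 1, clone 1, beta TRBV16 and TRBJ2-2: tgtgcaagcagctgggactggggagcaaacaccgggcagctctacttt
Tetramer-negative Round 2, clone 2, alpha TRAV13-1 and TRAJ39: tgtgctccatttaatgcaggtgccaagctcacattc
Tetramer-negative Round 2, clone 2, beta TRBV19 and TRBJ2-3: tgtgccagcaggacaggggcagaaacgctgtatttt

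Clones 1 and 2 of tetramer-positive Round 2 and clone 3 of tetramer-positive Round 1 shared 1 alpha sequence over all 45 bases. Against clone 3 of Round 1, the alpha loop of clone 3 of Round 2 differed by A12G, counted from 1 at the 5′ end of the loop, and its beta loop was identical over 36 bases. Clone 1 of tetramer-positive Round 2 held 29 members among 193 cells (15.0%, exact 95% interval 10.3 to 20.9), and clone 1 of tetramer-positive Round 1 held 11 among 86. The tetramer-negative clones shown lacked the run and TRAV16N. Clone 1 of tetramer-negative Round 1 held 19 members among 232 cells (8.19%), and clone 2 of tetramer-negative Round 2 held 10 among 17 (58.8%, 32.9 to 81.6), the highest share in any clone of at least 10 cells.

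The islet libraries kept 1204 to 8932 cells and 5880696 to 40469961 UMIs each, and shared at most 1.00% of barcodes with each other. Members were the deeper cells: their median UMI counts were 4406, 4323, 5218.5 and 5415, against 3758, 3825.5, 3723.5 and 4072 in the other cells. Between 99.8% and 100% of members held a CD3 transcript and 81.6% to 94.8% a TCR chain, and the CD8 T cell list summed to 5620 to 6537 UMIs per 1000000 (CPM). The B cell list summed to 0 to 4.94 CPM, myeloid markers to 25.7 to 44.0 and islet endocrine hormones to 0 to 9.33, and Cd4 had 1 UMI in all members. Exocrine enzymes summed to 158, 274, 30.3 and 382 CPM in members against 104, 365, 56.3 and 110 in other cells, and 289 of the 304 exocrine UMIs of tetramer-positive Round 2 members came from 1 cell. More than 1 beta chain, a sign of 2 cells in 1 droplet, was found in 2.09%, 5.89%, 2.63% and 0.741% of members and in 1.66%, 3.38%, 1.95% and 0.889% of the other cells.

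The first question was how common these cells were with and without tetramer binding. They made up 7.45%, 8.93%, 6.31% and 8.45% of the kept cells, so the groups overlapped. The tetramer-positive share was 7.38% ± 1.51 (SD, n = 2) and the tetramer-negative share 8.19% ± 1.05 (SD, n = 2), a difference of -0.81 points with an exact two-sided permutation p of 0.667, where 2 libraries against 2 cannot go below 0.333. Without tetramer-positive Round 1 the difference was 0.256 points. With each cell thinned to 1000 UMIs, which removes differences in depth, the shares were 1.07%, 2.08%, 1.61% and 1.22%. The same count conditions held in 7.18% and 7.41% of tetramer-positive spleen cells, and in 2.14% and 1.77% after thinning. Spleen cells were kept at 200 to 2000 genes, a lower limit than for islet cells, so the tissues were not filtered alike. Without an upper limit on genes the spleen shares were 7.27% and 7.47%.

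**Figure D1:**
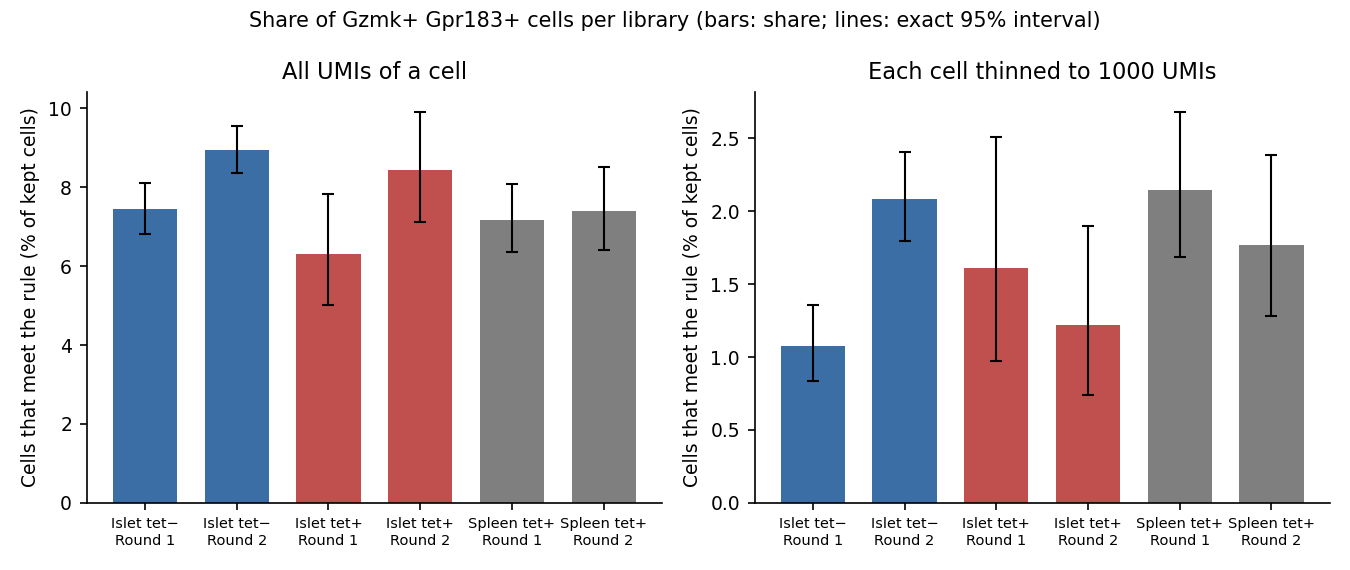
Share of kept cells that met the rule in each islet and spleen library (y axis, percent), from all UMIs on the left and after thinning each cell to 1000 UMIs on the right. Bars are shares and lines exact 95% binomial intervals, which cover counting error only. Islet cells were kept at up to 3500 genes and spleen cells at up to 2000. The islet groups overlapped on the left at 6.31% to 8.93% and on the right at 1.07% to 2.08%.

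The conditions acted differently in the groups. Gzmk alone was present in 31.8%, 32.1%, 50.7% and 50.6% of cells, so both tetramer-positive libraries lay above both tetramer-negative ones, and Gpr183 in 17.1%, 20.6%, 18.2% and 23.9%, which overlapped. Without the conditions on Havcr2, Klrg1 and Mki67, the share was 10.1%, 11.6%, 11.05% and 14.7%. Those conditions left out 569 of 2057 cells with both transcripts (27.7%), of which 302 held Mki67, 238 Havcr2 and 149 Klrg1, and 263 held 1 UMI of the 3 genes in all. Among cells at 0 for the 3 genes, Gpr183 was found in 33.2%, 38.2%, 21.4% and 29.5% of Gzmk+ cells and in 10.1%, 12.9%, 14.1% and 18.6% of Gzmk- cells, ratios of 3.28, 2.97, 1.51 and 1.59. Within 3000 to 6000 UMIs the ratios were 3.33, 2.98, 1.21 and 1.45, so the share with Gpr183 differed more between Gzmk+ and Gzmk- cells in the tetramer-negative libraries, a description without a test.

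Many members lay at the edge of the rule. Exactly 1 Gzmk UMI was seen in 491 members (33.0%), exactly 1 Gpr183 UMI in 862 (57.9%) and 1 of each in 302 (20.3%), while 437 (29.4%) held at least 2 of each. The median member held 2 Gzmk and 1 Gpr183 UMIs, and the largest counts were 16 and 14. Free RNA in a droplet can also supply such counts. In 4697 cells with the naive pattern of Lef1 and Ccr7 present and Cd44 at 0, with a median of 3666 UMIs, Gzmk was found in 7.20%, Gpr183 in 9.20% and the whole rule in 2.75%. Only 22 and 30 of these cells were in the tetramer-positive libraries. Over all 18163 kept cells, with a median of 3855 UMIs, the shares were 34.8%, 19.5% and 8.19%.

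Gzmm and Hopx, proposed as markers of these cells but not used to choose them, were higher in members of the tetramer-negative libraries and not in those of the tetramer-positive libraries. Gzmm, which encodes granzyme M, was at 32.7, 33.6, 2.33 and 2.51 CPM in members and at 11.1, 12.2, 3.30 and 2.64 in the other cells of the same libraries. The tetramer-positive values rest on 1 and 2 UMIs. Hopx, a transcriptional cofactor of differentiated T cells, was at 147, 143, 88.6 and 54.0 CPM against 70.7, 60.5, 87.7 and 59.7. In the tetramer-positive libraries members and other cells thus lay close to each other for both genes. Over the 4 libraries, both passed the edgeR quasi-likelihood test with library as a block, Gzmm with a log2 difference of 1.42 (SE 0.16, adjusted p = 1.94e-05) and Hopx with 0.88 (SE 0.14, adjusted p = 0.000656). Within the tetramer-positive libraries the log2 differences were -0.22 and -0.06, and without tetramer-negative Round 2 Hopx no longer passed. The Hopx difference itself differed between the groups by -1.21 on the log2 scale (SE 0.17, adjusted p = 0.000116). The cells most like members were closer. Hopx was at 142, 107, 95.7 and 62.0 CPM in Gzmk+ Gpr183- cells and at 100.3, 86.1, 152 and 71.6 in Gzmk- Gpr183+ cells, and passed against neither (edgeR adjusted p = 0.341 and 0.0564). Gzmm was at 31.6, 27.5, 0 and 6.13 CPM in Gzmk- Gpr183+ cells, against which it did not pass (adjusted p = 0.802), and at 15.2, 20.5, 6.49 and 3.33 in Gzmk+ Gpr183- cells, against which it was higher by 0.82.

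Gzmk+ Gpr183- cells differed from members in having 0 Gpr183 UMIs and shared the zeros for the other 3 genes. Their median UMI counts were 3929, 4101.5, 3681 and 3936.5, lower than in members of each library. Against them, members were lower in effector chemokines, granzyme B and some genes of the coinhibitory list, Lag3 among them. Pdcd1, Tigit, Ctla4, Cd160 and Btla of that list were not called. Members were higher in a few genes of naive and memory cells. These comparison cells numbered 2856. Of 9023 genes tested, 52 were higher (0.576%) and 50 lower (0.554%) in members at an adjusted p under 0.05. Among genes of at least 20 CPM that were lower in all 4 libraries, the log2 difference was largest for Ccl3, a chemokine that draws macrophages and T cells, at 20.9, 12.8, 18.7 and 28.9 CPM in members and 51.7, 27.7, 78.7 and 56.6 in Gzmk+ Gpr183- cells. Each member value was lower than that of its own library, by 1.23 on the log2 scale (SE 0.14, edgeR adjusted p = 1.6e-05). Ccl4, its close relative, was at 167, 190, 91.0 and 241 CPM against 227, 254, 231 and 314. Ccl5, one of the most abundant transcripts of these cells, was lower by 0.32 on the log2 scale (SE 0.05, adjusted p = 0.0015), and its difference was -0.13 within tetramer-negative and -0.51 within tetramer-positive libraries. Of 9 cytokines and chemokines tested, 3 were lower and 0 higher.

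The cytolytic and inhibitory genes moved the same way. Gzmb, which encodes granzyme B, was at 123, 178, 93.3 and 87.9 CPM in members and 198, 251, 286 and 193 in Gzmk+ Gpr183- cells, a log2 difference of -0.71 (SE 0.09, edgeR adjusted p = 7.4e-05). The 2 groups of cells did not overlap in Gzmb level. Of 17 cytotoxic genes tested, 3 were lower (Gzmb, Nkg7 and Ccl5) and 1, Gzmm, was higher. Entpd1, which encodes the ectonucleotidase CD39, was at 26.6, 29.9, 32.7 and 50.2 CPM against 46.1, 54.5, 83.6 and 121, and Lag3, an inhibitory receptor for MHC class II, at 138, 173, 231 and 337 against 235, 265, 320 and 499. Within every library the member value was the lower one, with log2 differences of -0.94 (SE 0.11) for Entpd1 and -0.60 (SE 0.06, adjusted p = 2.3e-06) for Lag3. Cd200 and the repressor gene Prdm1 were lower too, so 4 of 11 coinhibitory genes were lower and 0 higher. The rule had set Havcr2, a gene of the same programme, to 0 in both groups of cells.

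Among the genes higher in members were some of naive and memory T cells. Nsg2, a neuronal vesicle gene also expressed in naive T cells, was at 86.8, 70.4, 51.3 and 77.9 CPM in members against 53.5, 53.9, 34.1 and 50.6, and Lef1, a transcription factor of naive and memory-like T cells, at 89.2, 91.8, 56.0 and 46.5 against 65.7, 70.0, 35.7 and 26.6. All 4 libraries showed the member as the higher one, with log2 differences of 0.57 (SE 0.09) and 0.48 (SE 0.08). Myb, which encodes a transcription factor of self-renewing T cells, was higher by 0.52 and Il7r, the interleukin 7 receptor, by 0.38, the latter at 150, 157, 13.997 and 3.77 CPM against 101, 137, 2.43 and 7.33. Of 13 memory genes 3 were higher and 0 lower, and of 11 naive genes 2 were higher and 0 lower. The list medians were 0.20 and 0.26 on the log2 scale, beside 0.00 over all genes tested. Cxcr3, the receptor for interferon-induced chemokines, was higher by 0.32, whereas Cxcr6, a receptor of tissue-resident cells, was lower by 0.51 at 226, 269, 432 and 325 CPM against 334, 376, 470 and 600. Klrk1 and Klrc1, natural killer receptor genes, were higher by 0.30 and 0.24, and the interferon-stimulated Ifit3 and Irf7 by 0.73 and 0.30. No gene passed among 12 cell cycle genes, where the list median was -0.25.

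The count of 102 genes depended on the tetramer-negative libraries: without Round 1 of that group it was 15 and without Round 2 it was 24, and of the 23 genes followed through the alternatives 15 and 14 then missed the threshold, Gzmm, Cd200, Lef1, Myb, Il7r, Cxcr3 and Klrk1 in both cases. Within tetramer-negative libraries 46 genes were higher (0.51%) and 47 lower (0.521%), and within tetramer-positive ones 12 (0.133%) and 9 (0.0997%). Without tetramer-positive Round 2 the count was 177. Among the higher genes were exocrine enzymes, 3 of 8 tested, with Pnlip at 17.2, 28.1, 0 and 49.0 CPM against 9.92, 18.0, 1.62 and 2.00. Leaving out cells with at least 5 exocrine UMIs left 48 genes higher and 54 lower.

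**Figure D2:**
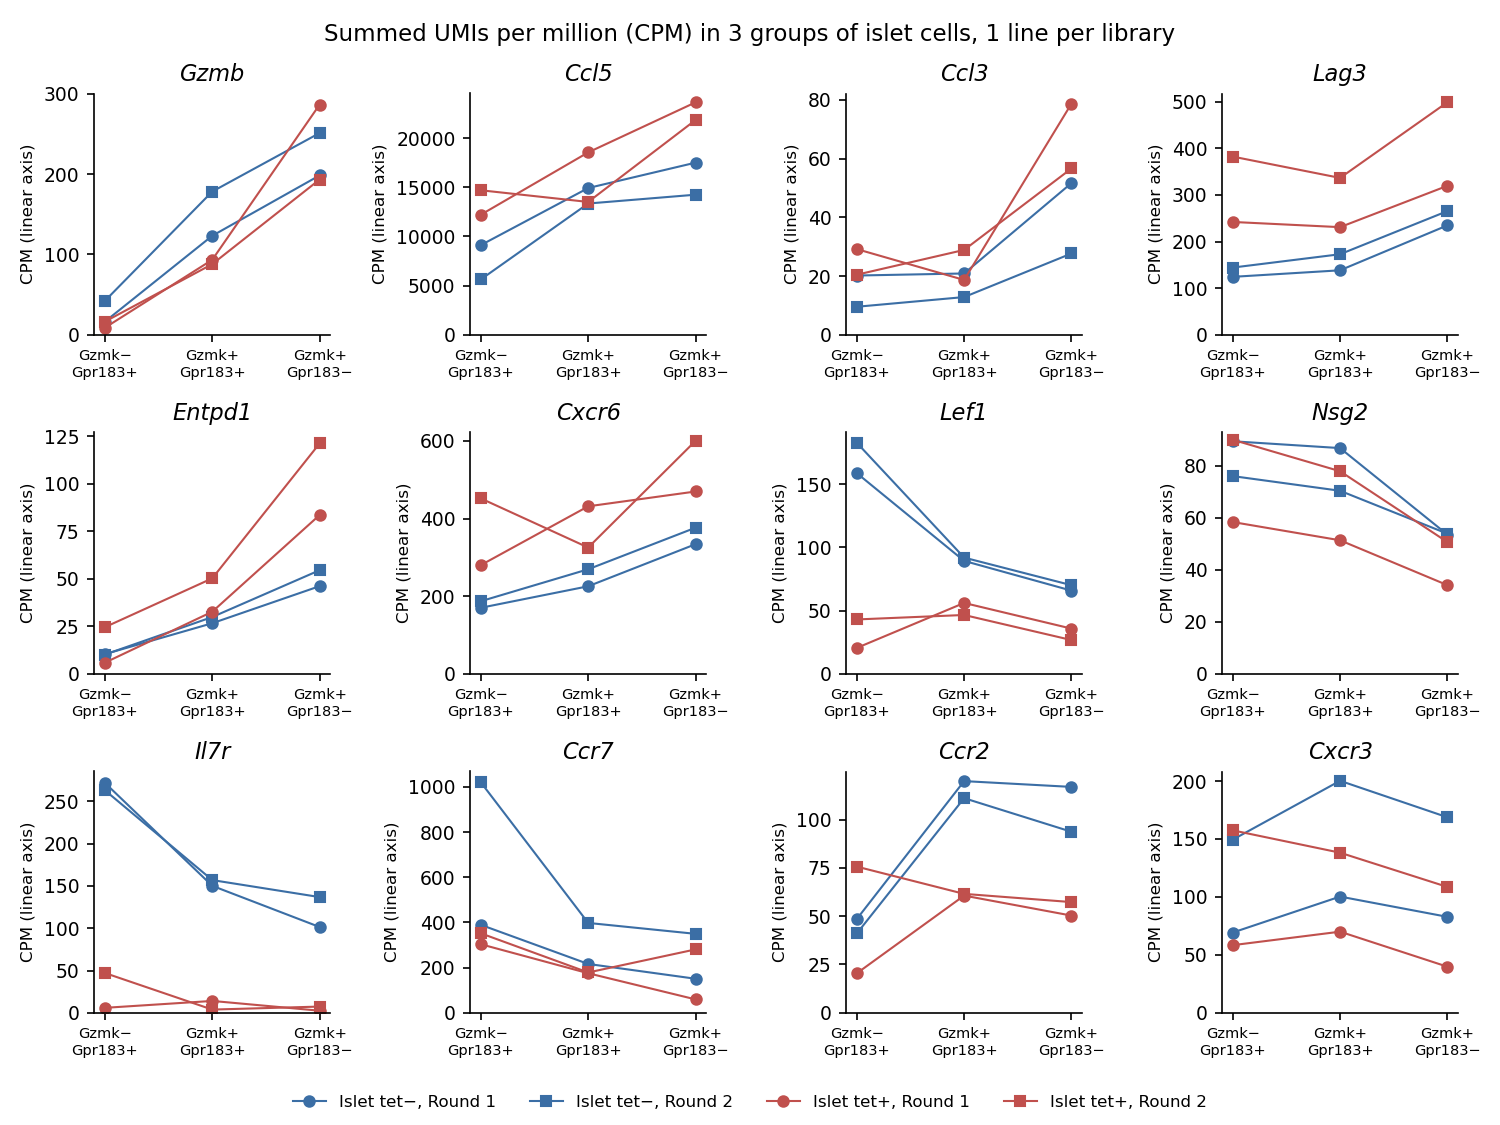
CPM (y axis, linear, from 0) of 12 genes in Gzmk- Gpr183+ cells, members and Gzmk+ Gpr183- cells (x axis), with 1 line per islet library. Gzmb rose from 16.4, 42.2, 8.75 and 16.4 CPM in Gzmk- Gpr183+ cells to members and again to Gzmk+ Gpr183- cells in each library, while Ccr2 in members lay above both other groups in the tetramer-negative libraries.

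The other neighbours were Gzmk- Gpr183+ cells, 1355 in number, which differed from members in having 0 Gzmk UMIs. Their median UMI counts were 4055, 4186, 3681.5 and 3378, also lower than in members of each library. Members were higher in cytotoxic genes and lower in naive and early activation genes. Of 8469 genes tested, 201 were higher (2.37%) and 199 lower (2.35%). Gzmb was at 16.4, 42.2, 8.75 and 16.4 CPM in Gzmk- Gpr183+ cells, so each member value was the higher one, with a log2 difference of 2.32 (SE 0.13, edgeR adjusted p = 1.5e-18). Gzma, which encodes granzyme A, was at 260, 304, 53.7 and 7.54 CPM in members against 36.5, 32.1, 0 and 36.8, a log2 difference of 2.84 (SE 0.20) that was 3.04 within tetramer-negative and 0.21 within tetramer-positive libraries. In tetramer-positive Round 2, Gzma was therefore lower in members, on 6 UMIs. Of 17 cytotoxic genes 8 were higher and 0 lower, among them Fasl, the ligand of a death receptor, by 0.89, and Nkg7, a granule protein gene, by 0.44.

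Most naive genes tested were lower in members than in Gzmk- Gpr183+ cells. Ccr7, which directs cells to lymph nodes, was at 216, 398, 175 and 178 CPM in members against 389, 1020, 303 and 352, lower in every library by 1.09 on the log2 scale (SE 0.09, edgeR adjusted p = 1.7e-12). Of 11 naive genes 9 were lower and 0 higher, with a list median of -0.71 beside -0.00 over all genes. Of 13 memory genes, 5 were lower, including Tcf7 by 0.37 and Il7r by 0.89, and 1, Eomes, was higher by 0.61. Tcf7 encodes TCF1, a factor that maintains memory and progenitor cells, and Eomes a factor of effector and memory cells. Lef1 was lower by 0.80 over all libraries, by 0.98 within tetramer-negative ones, and its difference was 0.59 within tetramer-positive ones.

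Early activation genes were lower in members as well. Fos was at 158, 169, 142 and 131 CPM against 191, 228, 265 and 280, and Cd69, an early activation marker that retains cells in tissue, at 259, 286, 105 and 163 against 353, 391, 219 and 227. Both were lower in all 4 libraries, by 0.58 (SE 0.10) and 0.54 (SE 0.09) on the log2 scale. Of 19 early response genes 8 were lower and 0 higher. Itgae, which encodes the CD103 integrin of epithelial residence, was at 20.9, 28.1, 0 and 6.28 CPM against 42.5, 59.2, 17.5 and 55.2, and Ccr8, a chemokine receptor of skin-homing and regulatory cells, at 6.14, 7.90, 9.33 and 3.77 against 24.0, 24.3, 37.9 and 79.7. Of 17 migration and adhesion receptors 2 were higher and 3 lower, with a list median of 0.15. Ccr2, a receptor for monocyte chemokines, was at 120, 111, 60.7 and 61.5 CPM against 48.5, 41.0, 20.4 and 75.7, higher by 1.14 over all libraries and lower in tetramer-positive Round 2. Although both groups of cells had Mki67 at 0, 5 of 11 cell cycle genes were higher in members, Stmn1 at 64.7, 24.9, 121 and 86.7 CPM against 32.7, 11.8, 81.7 and 14.3. Within tetramer-negative libraries 247 genes were higher (2.92%) and 292 lower (3.45%), and within tetramer-positive ones 55 (0.649%) and 47 (0.555%). The count of 400 genes was 137 without tetramer-negative Round 1 and 165 without tetramer-negative Round 2, and Tcf7 and, without Round 2, Lef1 then missed the threshold.

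Against all other cells of the library, 16675 in number, members were higher in chemokine receptors and natural killer receptors and lower in naive and cell cycle genes. Of 10498 genes tested, 263 were higher (2.51%) and 362 lower (3.45%). Since members had to lack Mki67 and Havcr2 and the other cells did not, the lower cell cycle genes (10 of 12) and coinhibitory genes (3 of 11, with 2 higher) were in part set by the rule. When the other cells were held to the same zeros, Ccna2, a cyclin of dividing cells, went from -3.54 to 0.11 on the log2 scale, Rrm2 from -1.97 to 0.19 and Entpd1 from -0.49 to 0.34. Among genes of at least 20 CPM that were higher in all 4 libraries, the log2 difference was largest for Ctla2a, a protease inhibitor gene, at 631, 1000, 812 and 977 CPM against 320, 404, 439 and 631, or 0.97 (SE 0.08, edgeR adjusted p = 1.1e-06). Cxcr3 was at 100, 200, 70.0 and 138 CPM against 52.1, 107, 45.3 and 94.6 and higher by 0.83, and Il18rap, a subunit of the interleukin 18 receptor, was higher by 0.92. Each of these was higher in members of all 4 libraries.

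Klrk1, which encodes the activating receptor NKG2D, was higher by 0.70 against all other cells, and 3 of 6 killer lectin-like receptors were higher and 0 lower. Slamf7, a receptor of cytotoxic lymphocytes, was higher by 0.74. The inhibitory Tigit was at 555, 563, 779 and 923 CPM against 389, 384, 704 and 839 and was higher, while Lag3 was lower by 0.40 and Ccl3 by 0.90. When the other cells were held to the same zeros, Lag3 and Ccl3 kept their direction but no longer passed. Igkc, an immunoglobulin light chain gene, was also higher, at 72.0, 38.0, 86.3 and 92.9 CPM against 39.4, 17.9, 58.0 and 65.1, beside a B cell list near 0; the part of free RNA in this was not tested. Of 4 genes that make or break down oxysterol ligands, none reached the level needed for a test, and Ch25h had 3 UMIs in all members. Within tetramer-negative libraries 656 genes were higher (6.25%) and 601 lower (5.72%), and within tetramer-positive ones 42 (0.4%) and 68 (0.648%). The count of 625 genes was 174 without tetramer-negative Round 1, 195 without tetramer-negative Round 2 and 1077 without tetramer-positive Round 2. Entpd1 missed the threshold without either tetramer-positive library, and Lef1 and Ccr2 without either tetramer-negative one.

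What set members apart from the other cells was not the same in the tetramer groups, and the difference itself was tested. Of 10498 genes, 54 (0.514%) had a member difference that was higher, and 59 (0.562%) one that was lower, in the tetramer-positive than in the tetramer-negative libraries. Lef1 was at 89.2 and 91.8 CPM in tetramer-negative members against 261 and 234 in the other cells, and at 56.0 and 46.5 in tetramer-positive members against 26.6 and 24.4. It was thus lower than in other cells by 1.44 on the log2 scale in one group and higher by 1.00 in the other, a gap of 2.45 (SE 0.25, edgeR adjusted p = 3.6e-07). Igfbp4, a gene of naive T cells, was at 85.1 and 97.3 CPM in the other tetramer-negative cells and at 0.734 and 0.139 in the other tetramer-positive cells. The part of naive cells among the comparison cells in these gaps was not tested. Of 12 naive genes 4 had a higher member difference in the tetramer-positive libraries and 0 a lower one.

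Effector genes went the other way. Gzmb was at 123 and 178 CPM in tetramer-negative members against 124 and 171, and at 93.3 and 87.9 in tetramer-positive members against 193 and 238, so that only the tetramer-positive members lay clearly below the other cells of their libraries. The gap was -1.31 (SE 0.15, edgeR adjusted p = 2.01e-06). Ccr2, in contrast, was higher by 1.04 within tetramer-negative libraries, and its difference was -0.09 within tetramer-positive ones. Of 17 cytotoxic genes 6 had a lower member difference in the tetramer-positive libraries, Gzmb and Ccl5 (gap -0.97) among them, and 0 a higher one. Of 6 killer lectin-like receptors 3 had a lower one and 0 a higher one. Tcf7 went with the naive genes, at a gap of 0.66 (SE 0.15, adjusted p = 0.0191). The count of 113 genes was 47 without tetramer-negative Round 1, 27 without tetramer-negative Round 2 and 282 without tetramer-positive Round 1, and 87 without cells of at least 5 exocrine UMIs. Leaving out single libraries cost Tcf7 its call 3 times, in every case but tetramer-positive Round 2, Klrc1 once, without tetramer-negative Round 2, and Ccr2 once, without tetramer-positive Round 2.

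**Figure D3:**
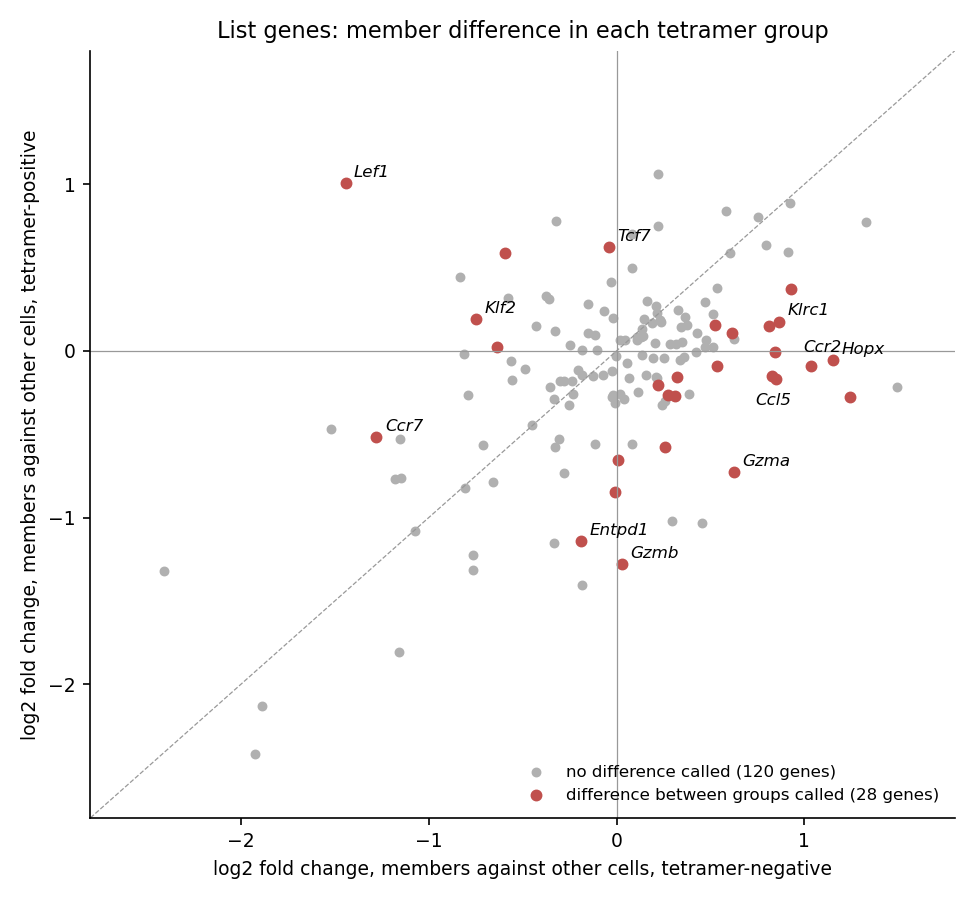
log2 difference of members from the other cells within tetramer-negative (x axis) and tetramer-positive (y axis) libraries for the 148 list genes, exocrine enzymes apart, with a UMI in members of every library. Red points mark 28 genes whose difference between the groups passed the edgeR interaction test and grey points the 120 that did not. The dashed line marks equal differences, and Lef1 at -1.44 and 1.00 lies above it.

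Members of the tetramer groups were also compared with each other. Without a block, 5 of 8333 genes passed, 1 higher (0.012%) and 4 lower (0.048%) in tetramer-positive members, and 767 (9.2%) had an unadjusted p under 0.05. Il7r was at 150 and 157 CPM in tetramer-negative and 13.997 and 3.77 in tetramer-positive members, a log2 difference of -4.30 (SE 0.47, edgeR adjusted p = 0.0428), and the difference was -3.69 in cells that were not members. The other 4 were beta chain variable genes, named after their values were seen, with Trbv13-3 at 59.8 and 122 against 1052 and 1650 CPM and Trbv14, Trbv17 and Trbv29 lower in tetramer-positive members. Reads of close Trbv relatives can be split in counting, so these values are uncertain. Without tetramer-negative Round 2, 0 genes passed in edgeR and 236 had an unadjusted p under 0.05, and without tetramer-negative Round 1, 42.

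The rounds pair the libraries, since islets of 1 pool of mice gave both groups of a round. With round as a block, 306 genes (3.67%) were higher and 347 (4.16%) lower in tetramer-positive members, with 1 residual degree of freedom. In that fit 9 of 11 naive genes were lower and 0 higher, among them Klf2, a factor of circulating cells, at 254, 385, 30.3 and 185 CPM and S1pr1, the exit receptor of lymphoid tissue, at 107, 120, 6.9986 and 25.1. Of 15 cytokine receptors 8 were lower and 0 higher, of 11 coinhibitory genes 6 were higher and 0 lower, and of 6 killer lectin-like receptors 5 were higher and 0 lower. Gzmm and Hopx were both lower. Lag3, at 138 and 173 against 231 and 337 CPM, and Tigit were among the higher coinhibitory genes. The fit with round as a block was not made for the cells that were not members. Whether these differences were particular to members was therefore not tested. By the values given above, Igfbp4 was lower and Tigit higher in the tetramer-positive libraries among the other cells too. The paper reports higher Pdcd1, Tigit and Lag3 in tetramer-positive islet cells of its clusters.

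TCR sequences, which the rule did not use, placed members in expanded clones. A pair of 1 alpha and 1 beta chain was found in 249, 489, 46 and 116 members, and the share of these with a clone mate in their library was 66.3%, 64.2%, 100% and 100%. In the other cells the shares were 52.4%, 44.3%, 98.1% and 98.7%. The member share was higher in each library, by 9.25 points ± 9.18 (SD, n = 4), with an exact sign-flip permutation p of 0.125, the smallest that 4 libraries allow. The difference was 13.8 and 19.96 points in the tetramer-negative libraries and 1.91 and 1.30 in the tetramer-positive ones, where nearly every cell was in such a clone, and 5.69 points without tetramer-negative Round 2. Gzmk+ Gpr183- cells held 77.9%, 73.2%, 100% and 98.9% in expanded clones, and Gzmk- Gpr183+ cells 53.5%, 42.6%, 100% and 96.7%, so members lay between the neighbours in both tetramer-negative libraries. Against these neighbours the exact p values were 0.5 and 0.25.

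Members belonged to 167, 327, 13 and 26 clones, of which 84, 175, 0 and 0 were a single cell. Of their clones of at least 2 cells, numbering 83, 152, 13 and 26, 89.2%, 94.1%, 100% and 100% also held other cells. Of 30, 63, 14 and 22 clones of at least 10 cells, 21, 47, 11 and 19 held members. Over all clones of at least 10 cells, those without members included, the median shares of members were 8.15%, 8.33%, 7.14% and 9.35%. The highest shares were 41.7%, 58.8%, 20% and 21.1%. The shares of tetramer-negative clones therefore reached higher, in clones of few cells, while the medians lay close to each other.

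**Figure D4:**
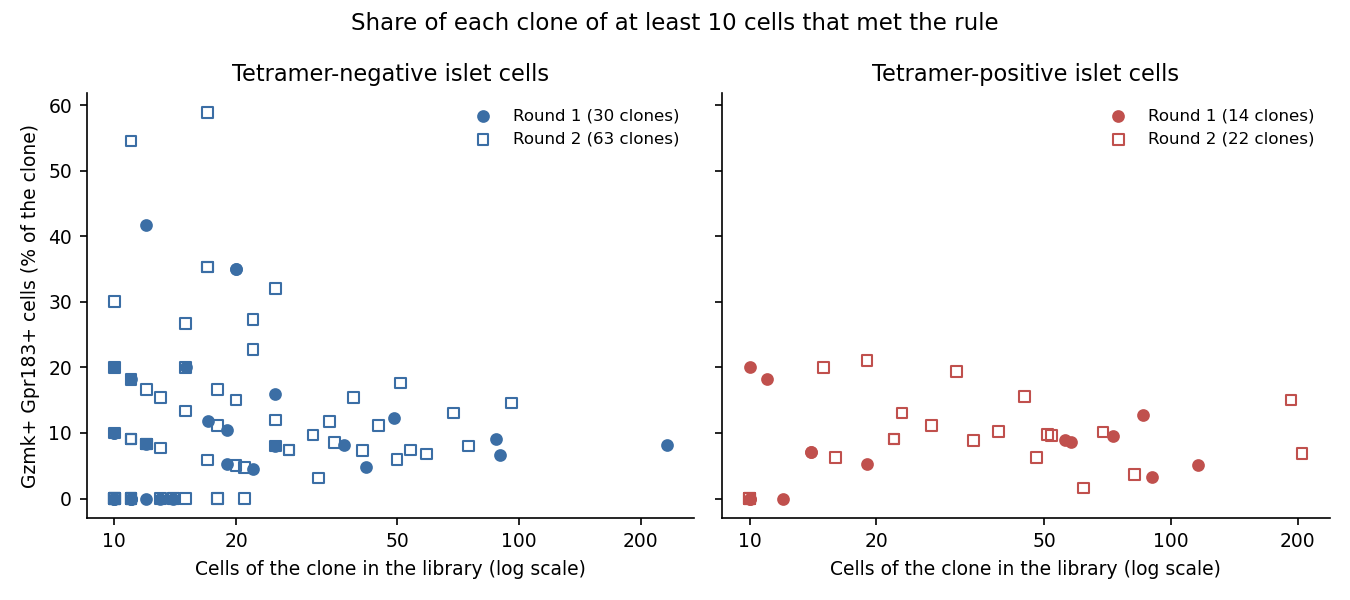
Share of members (y axis, percent of the cells of a clone) against clone size (x axis, cells of the library, log scale) for each clone of at least 10 cells, with 30 and 63 tetramer-negative clones on the left and 14 and 22 tetramer-positive clones on the right. Filled circles are Round 1 and open squares Round 2. The highest share was 58.8% on the left and 21.1% on the right.

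In the tetramer-positive libraries member clones were also found in the spleen of the same mice, in 13 of 13 and 25 of 26 clones. In the tetramer-negative libraries 6 of 167 and 2 of 327 were found among the tetramer-positive spleen cells, the spleen cells that were sorted. By cells, 12.4%, 3.68%, 100% and 99.1% of paired members were in such clones, against 11.4%, 3.36%, 93.5% and 94.8% of the other cells, a difference of 3.07 points ± 2.90 (SD, n = 4, exact sign-flip permutation p = 0.125). Without tetramer-positive Round 1 it was 1.91 points. Among spleen cells under the same count conditions, 12 of the 13 tetramer-positive Round 1 clones and 19 of the 26 Round 2 clones recurred, which was 52.2% and 55.9% of the 23 and 34 spleen clones. How often islet clones without members recurred among these spleen cells was not tested. Of all tetramer-positive islet clones of at least 10 cells, with or without members, 14 of 14 and 21 of 22 were found in the spleen. TRAV16N was used by 14.5%, 11.7%, 100% and 100% of members and by 13.1%, 11.8%, 99.5% and 99.6% of the other cells, a difference of 0.502 points with an exact permutation p of 0.25. TRAV16N has close relatives whose reads may be assigned to one another. The 12-base run printed above, in either form, was found in 0%, 0.204%, 56.5% and 90.5% of members and in 0%, 0.0601%, 64.4% and 87.7% of the other cells. For the tetramer-negative Round 1 members, 0 of 249 allows a share of up to 1.47% (upper exact 95% bound, counting error only).

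Because most expanded clones with members also held other cells, both could be compared over the same clones, a comparison chosen after seeing the data. It set 147, 295, 46 and 116 members against 852, 1306, 510 and 978 other cells of the same clones. Cells were summed per library over all these clones, and clone was not a block. A clone could therefore weigh differently among the members and among the other cells. Of 9270 genes tested, 332 were higher (3.58%) and 352 lower (3.8%). Naive and memory genes were then higher in members. Nsg2 was at 73.1, 75.6, 68.0 and 79.6 CPM against 36.8, 29.8, 25.8 and 39.0, without overlap, a log2 difference of 1.21 (SE 0.13, edgeR adjusted p = 1.21e-09). Tcf7 was at 182, 129, 125 and 124 CPM against 95.5, 92.6, 54.9 and 86.3, again without overlap, a difference of 0.74 (SE 0.11, adjusted p = 1.18e-06). Lef1 was at 37.8, 42.0, 64.4 and 53.0 against 40.3, 25.6, 26.5 and 23.8 and higher by 0.72 (SE 0.17), where against all other cells it had been lower by 1.15. Of 10 naive genes 5 were higher and 0 lower, and of 13 memory genes 6 were higher, Slamf6 and Myb among them, and 1, Il2rb, lower.

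Chemokine genes were lower than in the other cells of the same clones. Ccl4 was at 164, 167, 93.0 and 221 CPM against 313, 329, 267 and 328, lower by 0.86 (SE 0.09, edgeR adjusted p = 5.86e-10), and 6 of 9 cytokine and chemokine genes were lower and 0 higher, Xcl1 by 0.60 and Ifng by 0.50. Gzmb was at 151, 202, 75.2 and 85.4 CPM against 171, 237, 247 and 249 and lower by 0.61, and 7 of 17 cytotoxic genes were lower and 2 higher. Of 11 coinhibitory genes 5 were lower, including Pdcd1, which encodes PD-1, and 1, Tigit, higher. Cxcr3 was higher by 0.86 and Cxcr6 lower by 0.70. Of 11 interferon-stimulated genes 5 were higher and 0 lower. The 3 zeros of the rule applied to members and not to their clone mates, and 11 of 12 cell cycle genes were lower. All 8 exocrine genes tested were higher; without cells of at least 5 exocrine UMIs the counts of all genes were 282 higher and 330 lower. Held to the 3 zeros and to the same clones, members against Gzmk+ Gpr183- cells gave 66 genes higher and 34 lower, with Nsg2 higher by 0.88 and Ccl3 lower by 1.33. Of 22 genes followed from the comparison without the clone limit, 6 then missed the threshold, Lef1, Myb, Irf7 and Prdm1 among them, and 0 changed direction.

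**Figure D5:**
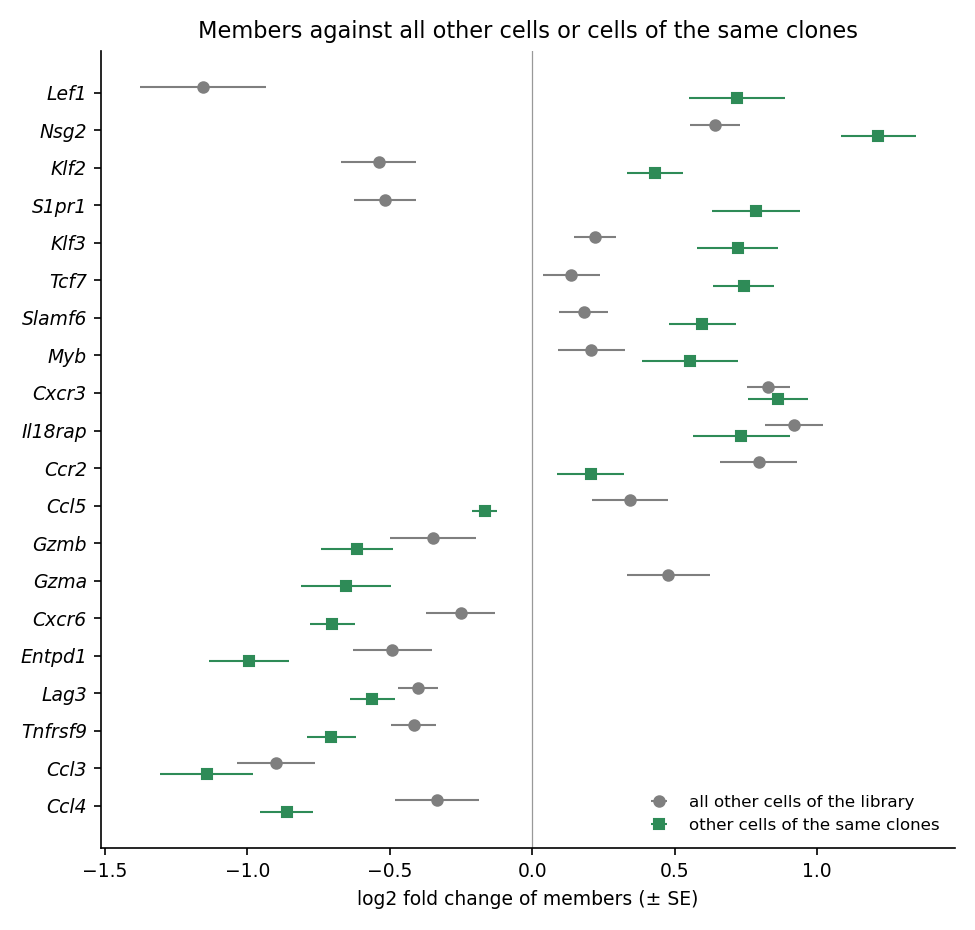
log2 difference of members (x axis, fitted value ± SE) for 20 genes (y axis), against all other cells of the library in grey and against other cells of the same clones in green. Lef1 moved from -1.15 to 0.72, Klf2 and S1pr1 also changed sides, and Nsg2 went from 0.64 to 1.21, while Ccl3, Entpd1 and Lag3 were lower in both comparisons. Neither comparison held the other cells to the zeros of the rule. With these zeros in all other cells of the library, Entpd1 changed sides and Ccl3 and Lag3 no longer passed.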

How the data were processed

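The authors deposited UMI counts per gene and cell from Cell Ranger (mm10, per the labels) and TCR contig tables with counts of UMIs per chain. Counts were summed over members and over comparison cells in each library and tested with edgeR 4.0.16 in R 4.3.3 (TMM, low-count filter, quasi-likelihood test, library as a block, Benjamini-Hochberg over all genes tested), leaving the 5 genes of the rule untested. CPM are UMIs per 1000000 UMIs of a summed group. The members and gene lists were chosen with earlier results of these data known. Named genes were those of the lists and, per comparison and direction, the 10 largest changes past an adjusted p of 0.05, alike in every library and with a mean of at least 20 CPM. TCR comparisons used Python 3.11.15 with scipy 1.17.1, and DESeq2 1.42.0 was an alternative. On simulated data with 200 changed genes, the comparison with the other cells recovered 87% at a log2 change of 1 and 56.5% at 0.5. Round numbers were taken to pair libraries, since 1 pool of mice gave both groups of a round; across 8335 genes the round differences of members in the 2 groups correlated at r = 0.490. Libraries are the replicates. For members against other cells, p-values set the difference within a library against its spread over the 4 islet libraries. Those between tetramer groups rest on 2 libraries per group. The 4 libraries came from 2 pools of mice, so they are not 4 independent pools. Intervals cover counting error only. Doublets were not removed by a caller. Some genes are not reported here.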

Additional observations from a re-analysis of the deposited data

Results flagged for a closer look

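The member difference, meaning members against the other cells of their library, differed between tetramer-positive and tetramer-negative libraries for these genes by the edgeR interaction test. On the log2 scale, with a positive value where the member difference was higher in tetramer-positive libraries, the gap was 2.45 for Lef1, 1.52 for Rgs10, a regulator of G protein signalling (adjusted p = 3.6e-07), and 0.66 for Tcf7. It was -1.31 for Gzmb, -1.21 for Hopx, -1.13 for Ccr2, -0.97 for Ccl5 and -0.69 for Klrc1. Rgs10 was at 113 and 116 CPM in tetramer-negative members against 199 and 229 in the other cells, and at 128 and 136 in tetramer-positive members against 73.9 and 98.4. For all of these except Klrc1, Tcf7 and Ccr2, the gap passed the threshold without each library in turn.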

How the results depend on the processing

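The counts of genes that differed depended on the design. Without the library block, 0 genes passed in edgeR against the other cells, against Gzmk+ Gpr183- cells, against Gzmk- Gpr183+ cells or in the comparison of the tetramer groups' member differences, where 362, 79, 220 and 243 genes had an unadjusted p under 0.05. DESeq2 called 214 genes against the other cells, 13 against Gzmk+ Gpr183- cells and 89 against Gzmk- Gpr183+ cells, and 27 between tetramer groups. Between those groups, round as a replicate block gave 653 genes. Against the other cells, 327 passed for members with at least 2 UMIs of both genes and 1094 without an upper limit on genes, 1257 within tetramer-negative and 110 within tetramer-positive libraries. Against Gzmk+ Gpr183- cells, 174 passed without the low-count filter, 160 in cells of 3000 to 6000 UMIs and 21 within tetramer-positive libraries, and against Gzmk- Gpr183+ cells 246 in that UMI range and 102 within tetramer-positive libraries. Between tetramer groups, 175 passed without the filter and 2 in that UMI range. For the member differences, DESeq2 size factors gave 173 genes, 115 higher and 58 lower, and no filter gave 176, 51 higher and 125 lower. Leaving out 1 library gave 174 to 1077, 15 to 177, 137 to 508, 0 to 42 and 27 to 282 genes in these 5 comparisons, in the order other cells, Gzmk+ Gpr183-, Gzmk- Gpr183+, tetramer groups and member differences. Of the 625 genes against other cells, 622 kept their direction in DESeq2 and 559 within tetramer-positive libraries. The difference in member share was 2.01 points without the 3 zeros of the rule and -1.88 to 0.256 with 1 library left out, and that in TRAV16N use was -0.347 in cells of 3000 to 6000 UMIs. With 1 library left out, the other TCR differences ranged from 5.69 to 11.9 points for expanded clones and 1.91 to 3.99 for clones found in the spleen.

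Within tetramer-positive libraries, the log2 difference against other cells was -0.22 for Gzmm, -0.057 for Hopx, 1.00 for Lef1 and -0.093 for Ccr2. In the same libraries it was -0.86 for Gzmm against Gzmk+ Gpr183- cells and 0.59 for Lef1 against Gzmk- Gpr183+ cells. With the 3 zeros in both groups it was 0.11 for Ccna2, 0.19 for Rrm2 and 0.34 for Entpd1. Over cells of the same clones it was 0.72 for Lef1, and, also without exocrine-rich cells, 0.69 for Lef1 and 0.0074 for Ccr7. Over the named genes, 263 of 312 values with 1 library left out and 443 of 558 under the other settings fixed at the start kept direction and call, and the cause of the lost calls was not tested. Round as a block changed no other comparison, where library was already the block. The tetramer-positive libraries held 76 and 135 members, which limits the precision within that group. Comparisons over the same clones, within groups and without exocrine-rich cells were chosen after seeing the data.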
